A study of Mus musculus with 56 samples.

Results

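The receptors that CD8 T cells use to read IL-12, IL-18, IL-6 and IL-10 were followed through 8 of their genes. They are *Il12rb1* and *Il12rb2* (the IL-12 receptor), *Il18r1* and *Il18rap* (the IL-18 receptor), *Il6ra*, *Il6st* and *Il27ra* (receptors of the IL-6 and IL-27 family) and *Il10ra* (the ligand-binding chain of the IL-10 receptor). The 8 genes were named with earlier results of these data known and taken by symbol, with no rule on their values, from the 55359 genes of the RNA-Seq count table, and all 8 passed the filter on low counts that left 19657 genes for testing. The RNA came from CD8 T cells of female C57BL/6 mice, bought at 8 to 12 weeks of age, that bind OVA:Kb tetramers. Because the graft donors and the sires were 2W-OVA.BALB/c mice, which constitutively express a recombinant OVA model antigen from an *Act* transgene, these cells are specific for the fetus and the graft (TFGS). Naive mice had neither a graft nor a pregnancy. Sensitized mice had rejected a 2W-OVA.BALB/c skin graft and were taken at least 30 days after it, without mating. Naive+Pregnant (N+P) mice and Sensitized+Pregnant (S+P) mice, the latter grafted first, carried a semi-allogeneic pregnancy and were taken on day 0 to 3 after delivery. TFGS of N+P mice were sorted into C1 (PD1-) and C5 (PD1+CD73+), and those of S+P mice into C4 (PD1-), C5 (PD1+CD73+) and C7 (PD1+CD73-). Every pregnant mouse had delivered, so pregnancy and the days after delivery cannot be told apart, and the grafted mice differ from the others by skin surgery as well as by the antigen. S+P mice were mated at least 30 days after the graft and taken after delivery. They may therefore differ from Sensitized mice in time since the graft as well as by pregnancy.

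IL-12 and IL-18, made mainly by myeloid cells, act together on T cells. IL-12 signals through JAK2, TYK2 and STAT4, IL-18 through MyD88 and IRAK kinases, and together they drive interferon gamma. Naive CD8 T cells carry little of the signal-bearing chains of both receptors (IL-12Rβ2 and IL-18Rβ, the product of *Il18rap*), and effector and memory cells carry more. IL-6 binds its own alpha chain (*Il6ra*) and signals through gp130 (*Il6st*), which several other cytokines share and which also pairs with the IL-27 receptor chain WSX-1 (*Il27ra*). Naive and central memory T cells are known for high IL-6 receptor and gp130 that is lost upon activation. IL-10 binds *Il10ra*, signals through STAT3 and restrains many immune cells, although it can also sustain CD8 memory.

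The 3 genes that passed the test for the graft are shown first with the DNA just before their outermost annotated start, because *Il18rap* and *Il10ra* rose and *Il6st* fell. Each run is the 250 bases upstream of the gene on GRCm39, the build of the files, 5′ to 3′ on the strand of the gene, with matches to 5 searched motifs in capitals. *Il18rap* (ENSMUSG00000026068, plus strand) has chr1:40554272-40554521, *Il10ra* (ENSMUSG00000032089, minus strand) has chr9:45180564-45180813, and *Il6st* (ENSMUSG00000021756, plus strand) has chr13:112600354-112600603.
Il18rap: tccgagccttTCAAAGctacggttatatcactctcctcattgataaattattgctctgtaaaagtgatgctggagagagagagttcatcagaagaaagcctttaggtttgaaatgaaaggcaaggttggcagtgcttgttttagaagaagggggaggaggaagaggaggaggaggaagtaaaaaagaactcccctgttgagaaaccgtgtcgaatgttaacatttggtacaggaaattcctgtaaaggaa
Il10ra: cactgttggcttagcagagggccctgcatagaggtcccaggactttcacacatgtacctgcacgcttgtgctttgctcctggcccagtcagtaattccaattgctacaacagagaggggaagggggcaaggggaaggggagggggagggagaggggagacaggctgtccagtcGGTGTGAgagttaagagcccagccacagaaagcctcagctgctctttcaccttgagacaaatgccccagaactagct
Il6st: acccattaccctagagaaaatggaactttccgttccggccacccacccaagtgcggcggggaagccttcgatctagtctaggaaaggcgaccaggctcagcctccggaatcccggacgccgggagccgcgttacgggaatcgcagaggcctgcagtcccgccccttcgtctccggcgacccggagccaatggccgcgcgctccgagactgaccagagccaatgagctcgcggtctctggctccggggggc
The motifs were searched on both strands as TTCNNNGAA for STAT factors, TGANTCA for AP-1, TGTGGT for RUNX, TCACACC for T-box factors and CTTTGA for TCF factors. *Il18rap* held the TCF motif, read on the opposite strand, from base 240 before its start, and 15% of the 21757 windows of this length before protein-coding genes hold it. *Il10ra* held the T-box motif on the opposite strand, from base 77 before its start, which 3.35% of windows hold. *Il6st* held 0 of the 5 motifs. The STAT motif was in 7.82% of all windows, the AP-1 motif in 6.46% and the RUNX motif in 13.8%. The *Il6st* window had 66% G and C and 26 CpG dinucleotides, against 42% and 4 in the *Il18rap* window and 56.4% and 2 in the *Il10ra* window. A match is a run of letters and not a bound site. The *Il6st* window also holds exon bases of 6720470G18Rik, a lncRNA on the other strand.

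*Il18r1* and *Il18rap* are neighbours on chromosome 1, both on the plus strand, at chr1:40504712-40540014 and chr1:40554522-40590865, with 14507 bases between them. *Il12rb1* lies at chr8:71261093-71276183 and *Il27ra* at chr8:84756916-84769253. *Il12rb2* lies at chr6:67268302-67353172, *Il6ra* at chr3:89771366-89820719, *Il10ra* at chr9:45165132-45180563 and *Il6st* at chr13:112600604-112646620. These positions are from GENCODE M39 on GRCm39. A share of 40% of the exon bases of *Il12rb2* is also exon of *Serbp1* on the opposite strand, and the sources used here do not say whether counting used the strand, so reads of the pair may not be told apart there. The same holds for 5.17% of *Il6ra*, 1.17% of *Il6st* and 0.819% of *Il27ra* exon bases.

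Levels are given as CPM, the counts of a gene scaled by the size of the library after TMM normalization, and levels of different genes are compared only as CPM per kilobase of exon. The 30 samples held 15547934 to 54809406 counts each, from 1 to 3 libraries of 200 sorted cells. The summed CPM of the CD8 T cell markers (*Cd3e*, *Cd3d*, *Cd8a*, *Cd8b1*, *Trac*, *Thy1*) was 4041 to 7727 in every sample. The summed CD4 T cell, B cell and gamma delta T cell lists reached at most 28.6, 62.8 and 13.3 CPM, and the myeloid list 345 CPM. Replicates 2 and 3 of S+P C4 stood apart with replicate 3 of S+P C7, with 8002, 7436 and 7879 detected genes against at least 12383 in the other 27 samples, and S+P C7 replicate 3 also held 16515 CPM of erythroid markers. Group ranges and calls that these 3 samples change are also given without them, whereas correlations include them. As in any bulk sample, a change in the share of cells that carry a transcript and a change in RNA per cell cannot be told apart.

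**Figure D1:**
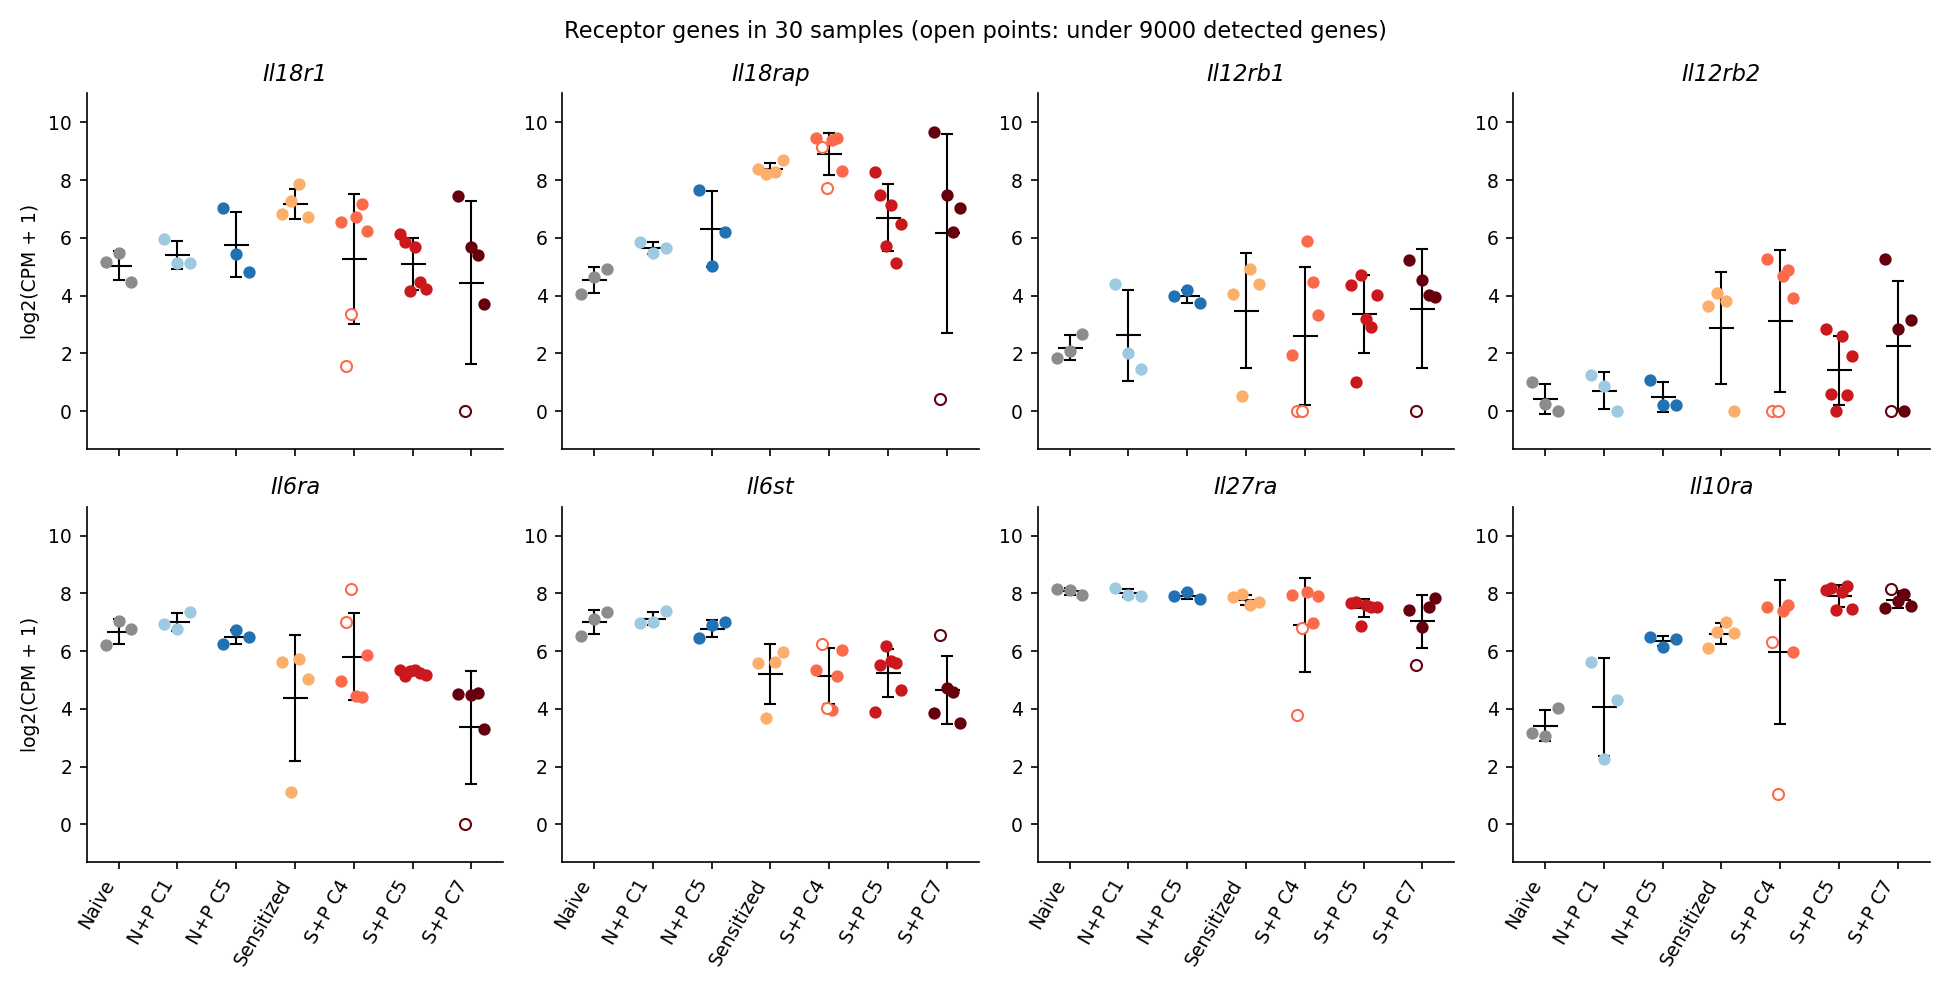
CPM of the 8 receptor genes, plotted as log2(CPM + 1) for each of the 30 samples in the 7 groups, with the mean and SD of each group in black and the 3 samples of under 9000 detected genes as open points. *Il18rap* is at 15.7 to 29 CPM in Naive and 294 to 411 CPM in Sensitized samples, *Il10ra* is highest in S+P C5 and S+P C7, and *Il6st* is lower in the 4 groups of grafted mice than in the other 3.

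*Il18rap*, the chain that lets IL-18 signal, had the widest range of the 8 genes. Its level was 15.7, 24.2 and 29 CPM in Naive and 57.2, 43.2 and 48.9 CPM in N+P C1 samples. It was 200.1, 31.5 and 73.3 CPM in N+P C5 and 331, 294, 308 and 411 CPM in Sensitized samples. All 4 Sensitized samples were thus above every sample of the 3 groups without a graft. In S+P C4 it ran from 209 to 701 CPM with a median of 618 CPM (317 to 701 CPM with a median of 683 CPM without replicates 2 and 3), and in S+P C5 from 33.9 to 312 CPM with a median of 114 CPM. In S+P C7 it was 803 CPM in the merged sample of replicates 1 and 2, 0.327 in replicate 3, and 178, 72.2 and 131 CPM in replicates 4 to 6. The order of the means was S+P C4, Sensitized, S+P C7, S+P C5, N+P C5, N+P C1 and Naive. The neighbours in this order overlapped in range, except N+P C1 and Naive.

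Sensitized against Naive, the *Il18rap* level differed by 3.87 on the log2 scale (SE 1.10), with an adjusted p of 0.401, and it did not pass the threshold. Without the 3 samples of few genes, none of which is in either group, the same difference was 3.86 with an adjusted p of 0.00805 and passed. Averaged over the 3 matched pairs of subsets with and without a graft (Sensitized and Naive, S+P C4 and N+P C1, S+P C5 and N+P C5), *Il18rap* rose by 2.56 on the log2 scale (SE 0.58), with an adjusted p of 0.0254. The 3 pairs were unlike. All S+P C4 samples were above all N+P C1 samples, but S+P C5 differed from N+P C5 by 0.40 (SE 0.88, adjusted p 1), with overlapping ranges. In simulated data this averaged contrast called unchanged genes more often than its nominal rate, which bears on each call made from it, here and below. At each of the 6 S+P replicate numbers, read as 1 mouse each though the labels do not state it, *Il18rap* was lower in C5 than in C4. In order of replicate number the levels were 312 against 701 CPM, 179 against 567, 51.4 against 209, 139.8 against 670, 33.9 against 696 and 87.3 against 317 CPM. The C4 samples of replicates 2 and 3 are samples of few genes. The log2 difference of S+P C5 from S+P C4 was -1.98 (SE 0.73, unadjusted p 0.0113, adjusted p 0.297), and -2.17 with an adjusted p of 0.45 with the replicate number as a block. N+P C5 was 2.15 above Naive (SE 1.05, adjusted p 0.764) and S+P C5 was 1.33 below Sensitized (SE 0.78, adjusted p 0.554). These opposite changes differed by -3.47 (SE 1.31, unadjusted p 0.0124, adjusted p 0.649), which did not pass.

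*Il18r1*, the chain that binds IL-18 first, was 35, 43.1 and 21.3 CPM in Naive, 61.9, 34 and 34.1 CPM in N+P C1 and 129, 43 and 27.4 CPM in N+P C5 samples. It was 113, 154, 233 and 106 CPM in Sensitized samples, all above Naive (log2 difference 2.19, SE 1.26, adjusted p 0.658). In S+P C4 it ran from 1.98 to 144 CPM with a median of 83.2 CPM, and from 74.4 to 144 CPM without replicates 2 and 3. In S+P C5 it ran from 16.8 to 68.6 CPM with a median of 35.8 CPM, below all Sensitized samples. In S+P C7 it was 173 CPM in the merged sample, 0 counts in replicate 3, where 3 counts would be 0.140 CPM, and 49.9, 41.1 and 12.3 CPM in the others. The averaged graft contrast was 0.71 on the log2 scale (SE 0.66, unadjusted p 0.289) and did not pass. S+P C5 was 1.97 below Sensitized on the log2 scale (SE 0.98, unadjusted p 0.0526, adjusted p 0.397). Without the 3 samples of few genes it was 1.95 below with an adjusted p of 0.0827, a fall past the threshold.

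The chains of the IL-18 receptor were compared per kilobase of exon. The ratio of *Il18rap* to *Il18r1* had a median of 0.41 for Naive, 0.927 for N+P C1, 1.13 for N+P C5, 1.76 for Sensitized, 5.12 for S+P C4 and 2.26 for S+P C5. It was 2.99 over the 4 samples of S+P C7 where both genes had over 3 counts. All 6 S+P C4 samples were above all 4 Sensitized samples, at 3.11 or more against 2.84 or less. The 209 found in S+P C4 replicate 2 rests on 38 counts of *Il18r1*.

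**Figure D2:**
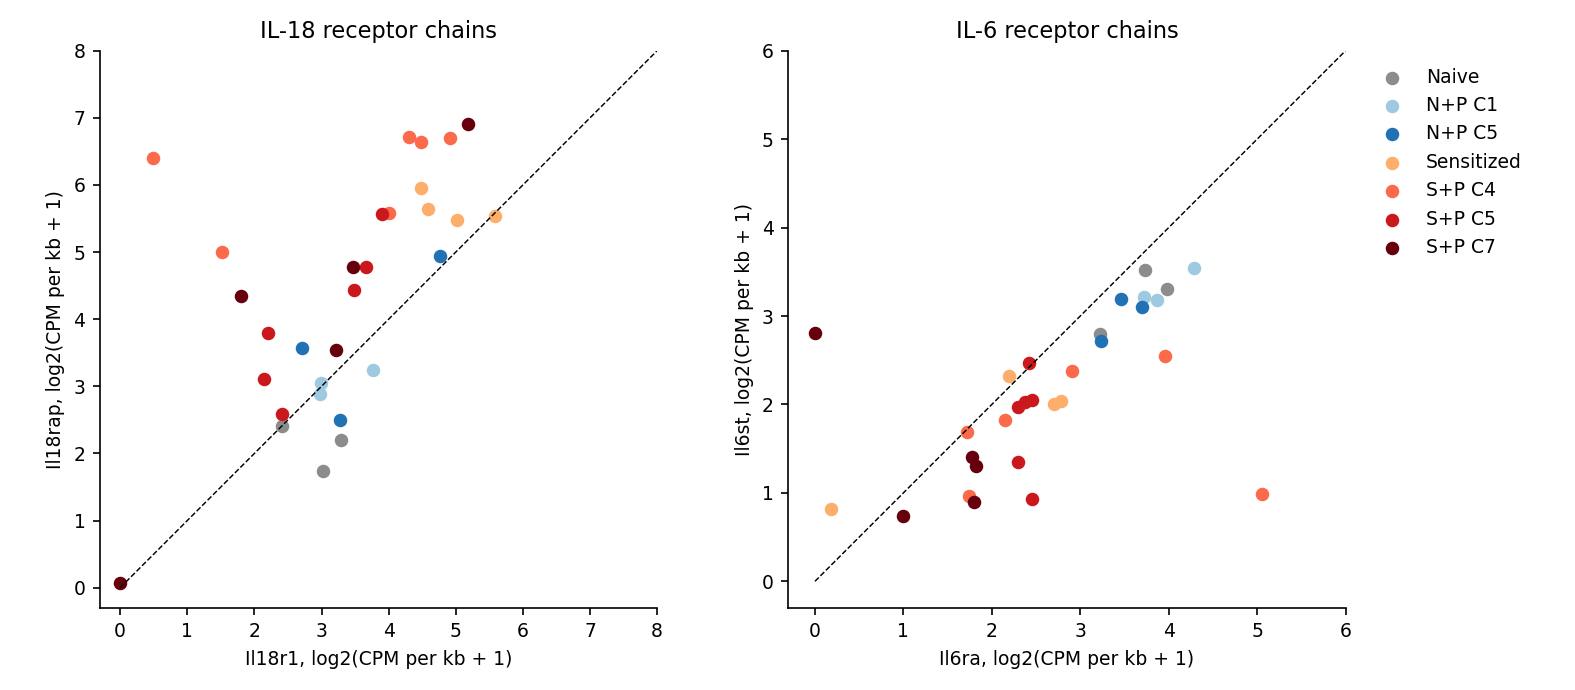
Both chains of the IL-18 receptor (left) and of the IL-6 receptor (right) in each of the 30 samples, as log2(CPM per kilobase of exon + 1), with a dashed line where the chains are equal. S+P C4 samples lie above the line on the left, with ratios of at least 3.11, and on the right the samples of mice without a graft lie above the others for *Il6st* apart from S+P C7 replicate 3 at 92.9 CPM, while S+P C4 replicate 3, far right, has 285 CPM of *Il6ra*.

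NK cell transcripts, like *Il18rap*, were higher in every Sensitized sample than in every sample without a graft, but the S+P samples did not all follow. The list (*Ncr1*, *Klrb1c*, *Klre1*) summed to 0.0378 to 5.4 CPM in Naive samples, 2.09 to 11.6 CPM in N+P C1 samples, 2.45 to 16.4 CPM in N+P C5 samples and 72.3 to 153 CPM in Sensitized samples. It summed to 1.69 to 545 CPM for S+P C4, 2.34 to 181 CPM for S+P C5 and, across S+P C7, 68.7 to 618 CPM. *Klrb1c* and *Klre1* are also known from effector CD8 T cells. *Ncr1*, the defining NK marker, was at 3 counts or fewer in all 15 Naive, N+P C1, N+P C5 and S+P C5 samples and in 3 of 4 Sensitized samples, with 1.9 CPM in the other. It reached 6.03 CPM in S+P C4 and 103 CPM in S+P C7 replicate 3, where *Il18rap* was 0.327 CPM. The flow panels of the study had a dump channel with an antibody to an NK cell marker, and the sources used here do not say whether the sort for RNA used it. The part of NK cells in the *Il18rap* levels was not tested.

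**Figure D3:**
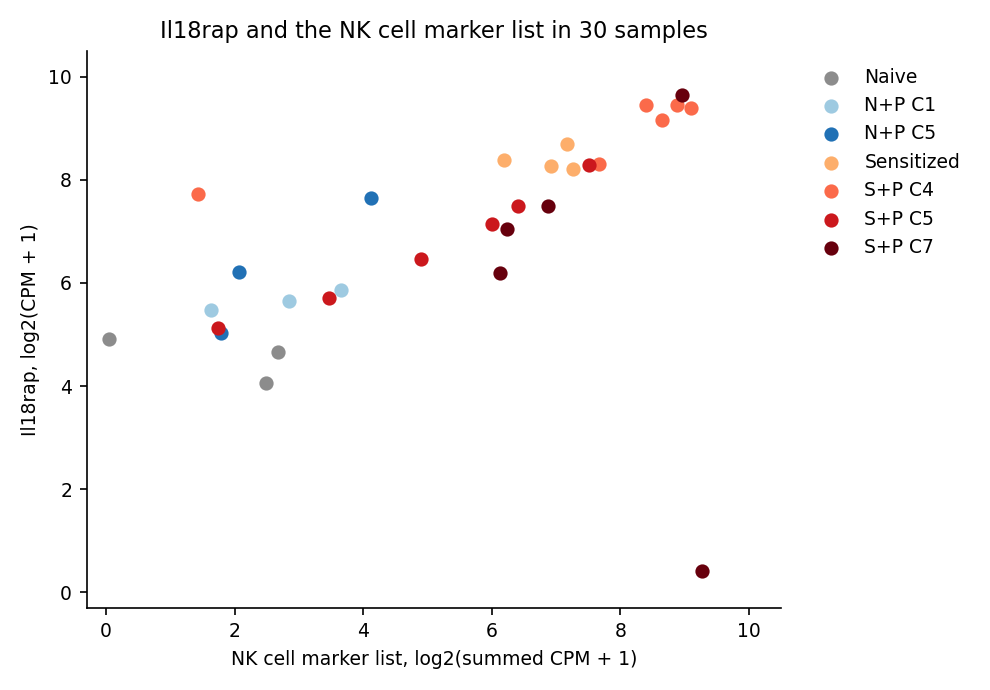
*Il18rap* against the summed NK cell marker list in each of the 30 samples, both as log2(CPM + 1). Samples of mice without a graft lie at the left, the S+P C4 point at the upper left is replicate 3, with 1.69 CPM of NK markers and 209 CPM of *Il18rap*, and the point at the lower right is S+P C7 replicate 3, with 618 CPM of NK markers and 0.327 CPM of *Il18rap*.

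*Il12rb2*, which gives the IL-12 receptor its STAT4 arm, was close to the floor in mice without a graft. It was 1.03, 0.199 and 0 CPM in Naive, 1.39, 0.836 and 0 in N+P C1 and 1.13, 0.146 and 0.155 CPM in N+P C5 samples. In Sensitized samples it was 11.5, 16 and 12.9 CPM in replicates 1 to 3 and 0 in replicate 4, where 3 counts would be 0.0779 CPM. S+P C4 ran from 0 to 37.2 CPM with a median of 19.2 CPM, both zeros being samples of few genes, and from 14 to 37.2 CPM without them. S+P C5 ran from 0 to 6.19 CPM with a median of 1.62 CPM, and S+P C7 samples were at 37.5, 0, 6.25, 0 and 7.85 CPM. All 6 S+P C5 samples were therefore below the 4 S+P C4 samples of ordinary gene number, but with all S+P C4 samples the groups overlapped. The share of all genes that separate in this way was not counted. The graft contrast was 3.84 on the log2 scale (SE 1.48, unadjusted p 0.0141, adjusted p 0.273). It passed without the 3 samples of few genes, at 4.04 with an adjusted p of 0.0743. Between S+P C5 and S+P C4 the log2 difference was -2.80 (SE 1.79, adjusted p 0.587), and -3.40 (adjusted p 0.368) without these samples. *Il12rb1*, the chain shared with the IL-23 receptor, was 2.55, 3.28 and 5.37 CPM in Naive and 14.9, 17.2 and 12.5 CPM in N+P C5 samples, which did not overlap (log2 difference 1.99, SE 1.85, adjusted p 1). It was 20.2, 3.07 and 1.72 CPM in N+P C1 and 15.8, 0.45, 29 and 19.9 CPM in Sensitized samples. It ran from 0 to 58 CPM in S+P C4 (2.89 to 58 CPM without replicates 2 and 3) and from 1.01 to 25.2 CPM in S+P C5. In S+P C7 samples it ran from 0 to 36.3 CPM (14.6 to 36.3 CPM without replicate 3). With all samples, every pair of groups other than Naive and N+P C5 overlapped.

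*Il6st*, which encodes gp130, was lower in the groups of grafted mice. It was 92.1, 139 and 163 CPM in Naive, 125, 128 and 166 CPM in N+P C1 and 86.8, 118 and 127 CPM in N+P C5 samples. It was 46.8, 11.8, 48.1 and 62.2 CPM in Sensitized samples. In S+P C4 it ran from 14.7 to 75.5 CPM with a median of 37 CPM (14.7 to 65.4 CPM without replicates 2 and 3). In S+P C5 it ran from 14 to 70.8 CPM with a median of 46.5 CPM. In S+P C7 it was 13.4 CPM in the merged sample, 92.9 in replicate 3 and 25.6, 22.8 and 10.4 CPM in the others. The lowest of the 9 samples without a graft, at 86.8 CPM, was above 20 of the 21 samples of grafted mice, the exception being S+P C7 replicate 3. In the graft contrast *Il6st* fell by 1.60 on the log2 scale (SE 0.39), with an adjusted p of 0.0488. Of the pairs it averages, Sensitized over Naive was -1.64 (SE 0.73, adjusted p 0.627) and S+P C5 over N+P C5 was -1.40 (SE 0.66, adjusted p 0.844). With the replicate number as a block, which puts mice of different groups together, the call was lost (adjusted p 0.109). With no filter on low counts it was lost too (0.167). It was also lost, with the fold little moved, when Naive replicate 2 (adjusted p 0.127) or 3 (0.144), N+P C1 replicate 1 (0.115), 2 (0.12) or 3 (0.134), or N+P C5 replicate 2 (0.132) or 3 (0.136) was left out. It was 1.64 lower with an adjusted p of 0.000619 without the samples of few genes. Within grafted mice, S+P C5 differed from Sensitized by -0.02 (95% interval -1.28 to 1.25) and from S+P C4 by 0.03 (-1.10 to 1.17), intervals wide enough to hold a change of 1 in either direction.

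*Il6ra*, the IL-6 binding chain, was 73.8, 131 and 109 CPM in Naive, 121, 108 and 164 CPM in N+P C1 and 74.8, 106 and 88.5 CPM in N+P C5 samples. It was 48.8, 1.2, 51.9 and 31.7 CPM in Sensitized samples, all below Naive (log2 difference -1.64, SE 1.05, adjusted p 0.761). S+P C5 samples were the closest to each other of any group, from 34.5 to 39.8 CPM with a median of 37.8 CPM. S+P C7 samples were at 21.9, 0, 21.5, 22.4 and 8.78 CPM, all below S+P C5 (log2 difference -1.32, SE 0.86, adjusted p 0.723). The 0 was replicate 3, a sample of few genes. The share of all genes that separate these groups was not counted. S+P C4 ran from 20.2 to 285 CPM with a median of 44.1 CPM, and from 20.2 to 57.7 CPM without replicates 2 and 3, which held 128 and 285 CPM. The graft contrast was -1.15 on the log2 scale (SE 0.57, unadjusted p 0.0513, adjusted p 0.499). Without the 3 samples of few genes it was -1.65 with an adjusted p of 0.00338 and passed. Per kilobase, the ratio of *Il6st* to *Il6ra* had medians from 0.524 in S+P C4 to 0.834 in Sensitized samples.

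*Il27ra*, the WSX-1 chain, had a median of 52.2 CPM per kilobase over the 30 samples pooled, against 26.2 for *Il10ra*, 23.6 for *Il18rap* and 9.43 for *Il18r1*. The medians of *Il6ra*, *Il6st*, *Il12rb1* and *Il12rb2* were 4.47, 3.13, 2.18 and 0.285 CPM per kilobase. *Il27ra* had the highest group median in Sensitized samples and in all 3 groups without a graft. *Il18rap* was above it in S+P C4, at 91.6 against 43.9 CPM per kilobase. *Il10ra* was above it in S+P C5, at 61.5 against 45.5, and in S+P C7, at 48.4 against 41.3 CPM per kilobase. *Il27ra* was 285, 276 and 243 CPM in Naive, 291, 248 and 239 CPM in N+P C1, 242, 261 and 225 CPM in N+P C5 and 231, 251, 192 and 206 CPM in Sensitized samples. It ran from 115 to 209 CPM with a median of 189 CPM in S+P C5, and from 12.9 to 265 CPM with a median of 182 CPM in S+P C4 (124 to 265 CPM with a median of 242 CPM without replicates 2 and 3). In S+P C7 it was 171, 45, 112, 183 and 228 CPM. All S+P C5 samples were below all N+P C5 samples, with a log2 difference of -0.42 (SE 0.50, adjusted p 1). The graft contrast was -0.45 (95% interval -1.06 to 0.16, adjusted p 0.836). *Il27ra* was past the thresholds in 0 of the 13 contrasts, and its difference in each of them lay between -0.57 and 0.13.

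*Il10ra* had the lowest adjusted p of the 8 genes in the graft contrast. It was 7.98, 7.32 and 15.3 CPM in Naive, 48.9, 3.83 and 18.6 CPM in N+P C1 and 89.8, 70.3 and 83.8 CPM in N+P C5 samples. It was 68.4, 101, 129 and 98.7 CPM in Sensitized samples, so both N+P C5 and Sensitized lay above every Naive sample. It ran from 1.09 to 191 CPM with a median of 122 CPM in S+P C4 (62.3 to 191 CPM without the samples of few genes) and from 169 to 304 CPM with a median of 269 CPM in S+P C5. In S+P C7 it was 177, 285, 211, 251 and 187 CPM. S+P C5 and S+P C7 overlapped each other, and each lay above all Sensitized and all N+P C5 samples. S+P C7 was 1.17 above Sensitized on the log2 scale (SE 0.69, adjusted p 0.665), which did not pass, and S+P C7 against N+P C5 was not tested. The share of all genes that separate was not counted for these comparisons of S+P C7. Sensitized was 3.28 above Naive (SE 0.87, adjusted p 0.263), which did not pass. *Il10ra* rose by 2.38 on the log2 scale in the graft contrast (SE 0.47, adjusted p 0.00647), a call kept when any of the 25 samples it uses was left out. In this contrast subsets read as from the same mouse count as separate samples. Leaving 1 out keeps the other. At each of the 6 S+P replicate numbers, again read as 1 mouse each, *Il10ra* was higher in C5 than in C4. The levels were 274 against 182 CPM, 291 against 78.7, 169 against 1.09, 265 against 166, 304 against 191 and 177 against 62.3 CPM. The log2 difference was 1.12 (SE 0.58, adjusted p 0.419), 1.63 (adjusted p 0.999) with the replicate number as a block and 0.70 (adjusted p 0.47) without the 3 samples of few genes. The C5 contrast, the mean of N+P C5 over Naive and S+P C5 over Sensitized, was 2.15 (SE 0.55, unadjusted p 0.00046, adjusted p 0.112), just short of the threshold. It passed without the 3 samples of few genes, at 2.17 with an adjusted p of 0.000328. N+P C5 was 2.99 above Naive (SE 0.88, adjusted p 0.664) and S+P C5 was 1.32 above Sensitized (SE 0.67, adjusted p 0.42). The difference between these was -1.68 (SE 1.04, adjusted p 1). *Il10rb*, the partner chain, was at 51.2 to 62.8 CPM in Naive, 70.8 to 100.2 CPM in N+P C5, 89.1 to 109.7 CPM in Sensitized and 66.6 to 119 CPM in S+P C5 samples, with a C5 contrast of 0.14 (SE 0.76, adjusted p 1).

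**Figure D4:**
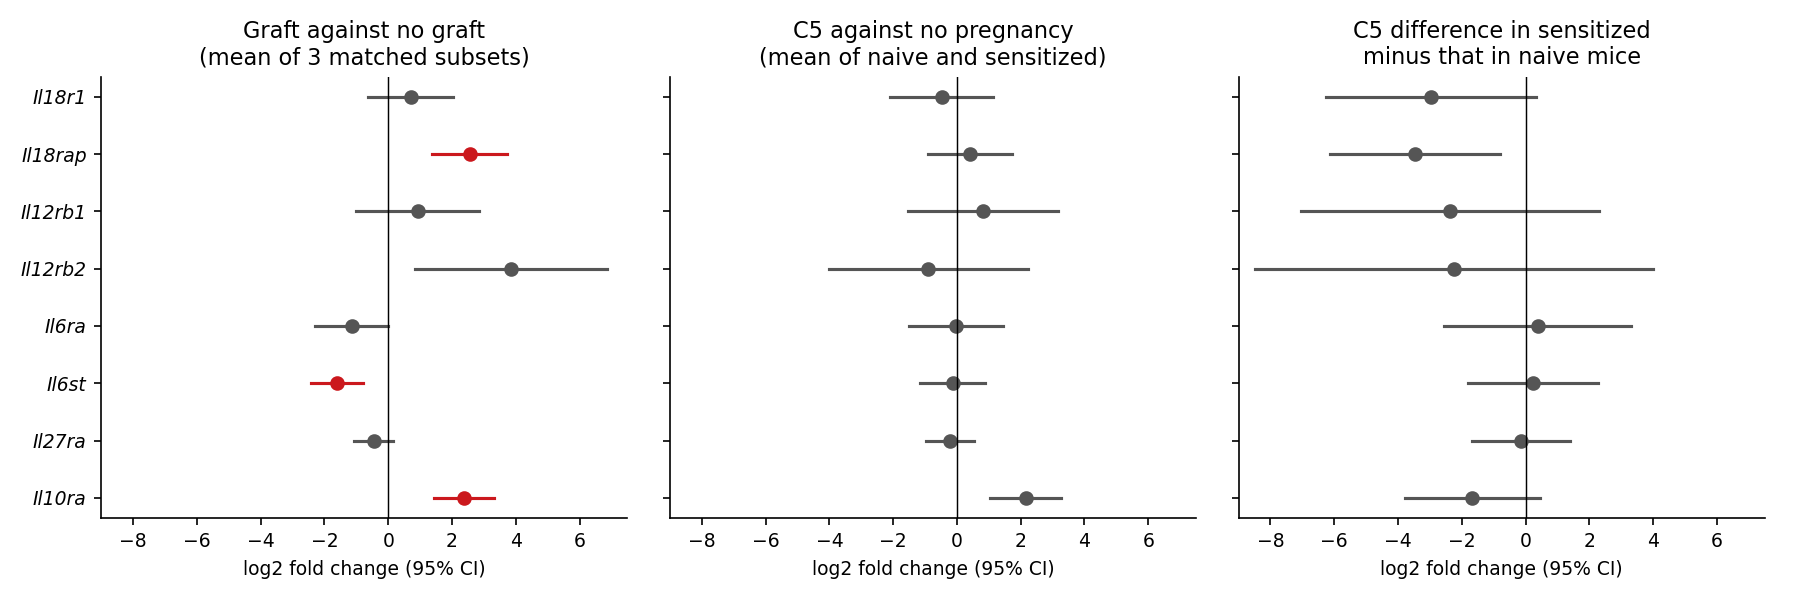
log2 fold changes of the 8 genes with 95% intervals in the graft contrast, the C5 contrast and their interaction, with genes past both thresholds in red. *Il18rap*, *Il6st* and *Il10ra* are red in the first panel at 2.56, -1.60 and 2.38, and *Il10ra* stands at 2.15 in the second.

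The calls were read against the background of all 19657 genes tested, where a gene is called if its adjusted p is below 0.1 and its log2 fold change is past 0.9 in size. In the graft contrast 3 of the 8 genes were called (*Il18rap*, *Il10ra*, *Il6st*), against 1.12% of all genes, and 4 had an unadjusted p under 0.05, against 10.2%. The median log2 fold change was 0.81 over the 8 and 0.03 over all genes. The count was 5 without the 3 samples of few genes, with *Il12rb2* and *Il6ra* added, against 3.32% of all genes. Sensitized against Naive called 0 of the 8, against 0.153% of all genes. There 3 had an unadjusted p under 0.05 (*Il18rap*, *Il10ra*, *Il6st*), against 7.82%, and 5 did not overlap between the groups, against 7.59%. Of these, *Il18r1*, *Il18rap* and *Il10ra* were above and *Il6ra* and *Il6st* below. With these 3 samples left out 2 were called (*Il18rap*, *Il10ra*), against 0.782%. S+P C5 against N+P C5 called 0, as it did over all genes (0%), and 2 had an unadjusted p under 0.05 (*Il10ra*, *Il6st*), against 5.88%. In that comparison 4 did not overlap, against 2.67%, with *Il10ra* above and *Il6ra*, *Il6st* and *Il27ra* below.

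In the C5 contrast 0 of the 8 were called, against 0.376% of all genes, and 1 (*Il10ra*) had an unadjusted p under 0.05, against 10.7%. It was 1 without the 3 samples, against 2.16%. N+P C5 against Naive called 0, against 0.0407%. It had 2 at an unadjusted p under 0.05 (*Il10ra*, *Il18rap*), against 5.33%, and 3 that did not overlap (*Il10ra*, *Il18rap*, *Il12rb1*), against 12.9%. Without the 3 samples 1 (*Il10ra*) was called there, against 0.614%. S+P C5 against Sensitized called 0, against 0.0712%, and 0 had an unadjusted p under 0.05, against 13%. The genes that did not overlap there were 2 (*Il18r1* below, *Il10ra* above), against 2.88%, and without the 3 samples 1 (*Il18r1*) was called, against 1.02%. S+P C5 against S+P C4 called 0, against 0.0305%, with 1 (*Il18rap*) at an unadjusted p under 0.05, against 13.3%. The interaction called 0, against 0.0254%, with 1 (*Il18rap*) at an unadjusted p under 0.05, against 6.42%. The other comparisons called 0 of the 8 as well, against 0% of all genes for N+P C1 over Naive and S+P C7 over S+P C5, 0.00509% for N+P C5 over N+P C1 and for S+P C4 over Sensitized, and 0.0305% for S+P C7 over Sensitized. In the comparisons that called 0 of all genes, 634 genes (N+P C1 over Naive), 2500 (S+P C7 over S+P C5) and 1155 (S+P C5 over N+P C5) had an unadjusted p under 0.05, and DESeq2 called 749, 625 and 735. N+P C5 over N+P C1 had 1 unadjusted p under 0.05 (*Il10ra*, 0.0422). Comparisons with Naive or with Sensitized share those samples and are not independent of each other.

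**Figure D5:**
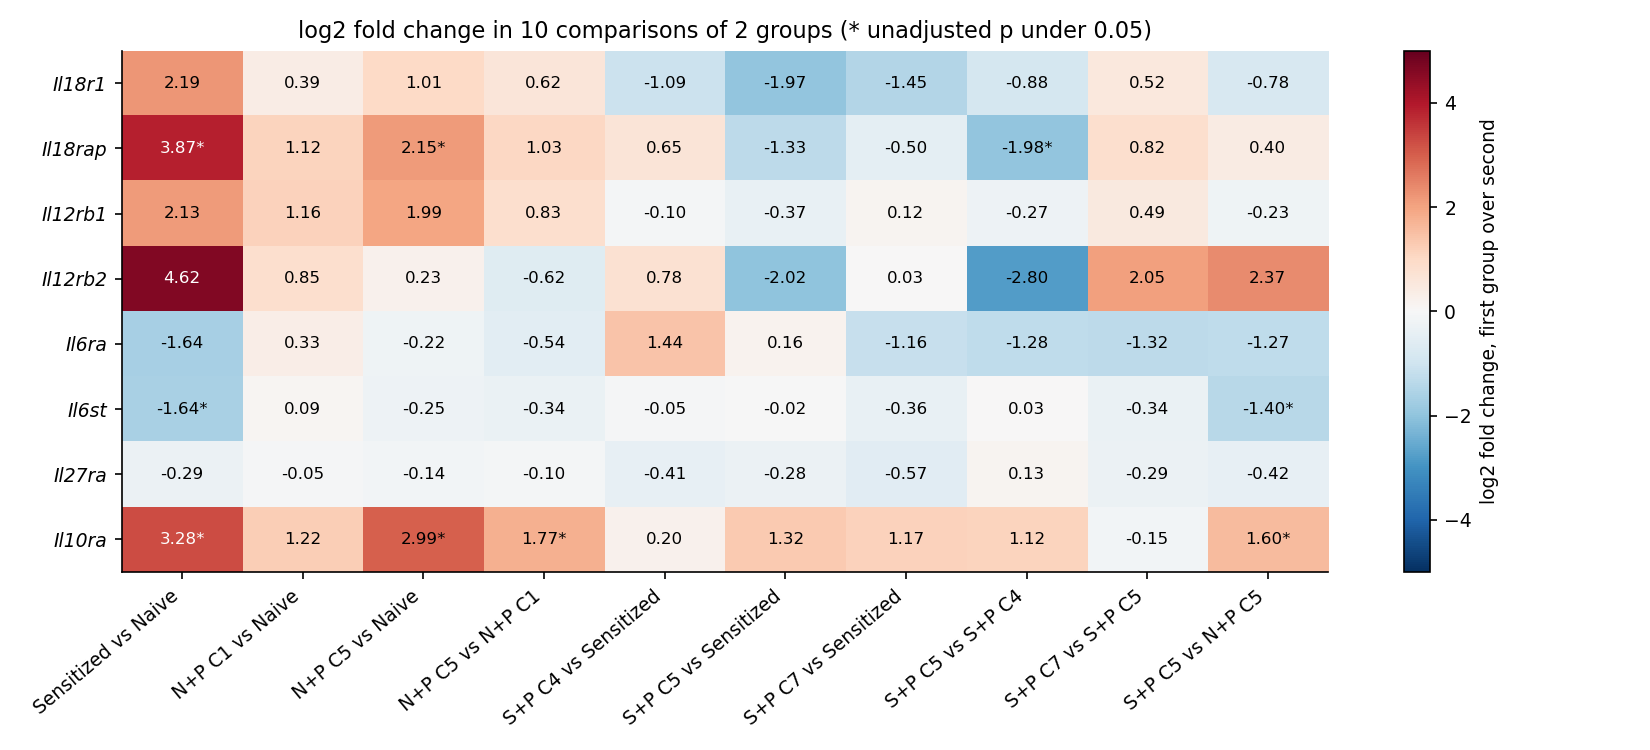
log2 fold change of the 8 genes (rows) in the 10 comparisons of 2 groups (columns), with an asterisk for an unadjusted p under 0.05. No value passed the adjusted threshold, and the largest is *Il12rb2* in Sensitized over Naive at 4.62.

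The genes around these receptors were taken from 4 lists. In the graft contrast the median log2 fold change was 0.24 over the ligands, 0.01 over the related receptors, 0.12 over the signalling genes and 1.09 over the targets, against 0.03 over all genes. At an unadjusted p under 0.05 there were 1 of 7, 0 of 10, 2 of 16 and 4 of 9 tested genes higher and 0 lower, against 10.2% of all genes in either direction. Among the cytokines themselves 7 of 12 were tested and 0 passed in any of the 13 contrasts. *Il18* was at 0 counts in the 3 Naive samples and at 0.941 to 16.3 CPM in Sensitized samples (unadjusted p 0.00789, adjusted p 0.627). The Sensitized mean was 59.4-fold above a floor of 3 counts in each Naive sample, which is not a bound on the fold. *Lif*, a gp130 cytokine, was at 0 counts in the 4 Sensitized samples and at 1.53 to 6.15 CPM in S+P C5 samples (adjusted p 0.277). The S+P C5 mean was 37.1-fold above the same kind of floor in the Sensitized samples. Of the related receptors 10 of 11 were tested and 0 passed. Of the signalling genes all 16 were tested and 0 passed. *Ptpn11*, the phosphatase SHP2 that gp130 recruits, was at 21.6 to 28 CPM in Naive and 160.4 to 204 CPM in N+P C5 samples (log2 difference 2.84, SE 1.20, adjusted p 0.764). It was at 14 to 56.6 CPM in Sensitized and 113 to 376 CPM in S+P C5 samples (2.34, SE 0.97, adjusted p 0.29), and S+P C4 samples were at 0.298 to 105 CPM (S+P C5 over S+P C4 1.76, SE 0.82, adjusted p 0.337). *Stat4*, the transcription factor of IL-12 signalling, was at 230 to 401 CPM in S+P C5, above all S+P C4 samples at 133 to 203 CPM (0.70, SE 0.27, adjusted p 0.297) and all N+P C5 samples at 142 to 177 CPM (0.87, SE 0.34, adjusted p 0.809).

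Among 10 genes known as targets of these cytokines 9 were tested, and 2 passed in the graft contrast, both higher, against 1.12% of all genes. *Ifng* rose by 2.57 on the log2 scale (SE 0.55, adjusted p 0.0157) and *Tbx21*, the T-box factor T-bet, by 2.75 (SE 0.67, adjusted p 0.0441). *Ifng* also rose in Sensitized over Naive, by 4.84 (SE 1.10, adjusted p 0.0826), from 0.0756 to 5.19 CPM in Naive to 34 to 158 CPM in Sensitized samples, and in the C5 contrast, by 2.64 (SE 0.66, adjusted p 0.0973). N+P C5 samples held 48.1 to 155 CPM of *Ifng*, above Naive (4.70, SE 1.11, adjusted p 0.182) and above N+P C1 at 10.1 to 26.2 CPM (2.48, SE 1.00, adjusted p 0.919), and N+P C1 was above Naive (2.22, SE 1.00, adjusted p 0.997). *Tbx21* was at 8.48 to 10.7 CPM in Naive and 90.8 to 180.1 CPM in Sensitized samples, without overlap (3.89, SE 1.26, adjusted p 0.627), and at 32.5 to 72.8 CPM in N+P C5 samples (2.59, SE 1.21, adjusted p 0.764). *Prdm1* (Blimp-1) and the kinase *Pim1* also did not overlap there, at 4.86 (SE 2.13) and 2.19 (SE 0.85), each with an adjusted p of 0.627. *Maf*, a transcription factor of IL-10 production, was at 0.539 to 4.15 CPM in Sensitized, 27 to 190.0 CPM in S+P C5 and 21.2 to 66.4 CPM in S+P C7 samples, with differences from Sensitized of 4.92 (SE 1.51, adjusted p 0.277) and 4.03 (SE 1.46, adjusted p 0.473).

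The genes most like each receptor gene were found by Pearson's r of log2(CPM + 1) over the 30 samples, which share groups and depth, and are given as a description. For *Il10ra* they were *Slamf7* (0.906), *Plek* (0.891) and *Runx2* (0.887), and for *Il18rap* they were *Klrc1* (0.86), *Ccr2* (0.841) and *Zyx* (0.837). For *Il6st* they included *Rapgef4* (0.865) and *Itgae* (0.76). *Il6ra* was most like *Ssbp3* (0.814), *Ikbke* (0.811) and *Bach2* (0.799). *Il27ra* was most like *Orai2* (0.92), *Zkscan3* (0.907) and *Pes1* (0.906), and *Il18r1* was most like *Chpf* (0.845), *Fgf13* (0.843) and *Hmox2* (0.839). *Il12rb1* was most like *Fhip2b* (0.85), *Bcat2* (0.848) and *Slc41a1* (0.825), and *Il12rb2* most like a gene without a symbol (0.861), *Ly6a2* (0.846) and *Dkkl1* (0.815). Among the 8, *Il18r1* and *Il27ra* had the highest r at 0.66, followed by *Il18rap* and *Il12rb2* at 0.65, and *Il18r1* and *Il18rap* at 0.61. The lowest was -0.61, for *Il6ra* and *Il10ra*.

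The 22 mice and subsets with a pair of separate technical libraries show how far 200 cells fix each level. The median difference between the libraries of a pair, taken on CPM + 1, was 1.25-fold for *Il27ra*, 1.33-fold for *Il18rap* and 1.34-fold for *Il10ra*. It was 1.56-fold for *Il6ra*, 1.65-fold for *Il6st*, 1.79-fold for *Il18r1* and 1.8-fold for *Il12rb1*. For *Il12rb2* it was 2.54-fold, with pairs at 0 in both libraries taken as no difference. In 8 of its 22 pairs 1 library had 3 counts or fewer while the other had more. The same was seen in 2 pairs for *Il6ra* and 1 each for *Il12rb1*, *Il6st* and *Il10ra*. The largest log2 difference in a pair was 1.37 for *Il18rap* and from 2.18 (*Il27ra*) to 3.95 (*Il6st*) for the other genes.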

How the data were processed

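RNA-Seq libraries were made with SmartSeq2 from 200 sorted TFGS each and sequenced in 1 run. To make the raw counts per gene and library, the authors trimmed reads with Cutadapt 3.4, aligned pairs to GRCm39 with STAR 2.6.1b, dropped read pairs without a unique position and counted with featureCounts 2.0.1. The annotation release and strand option are not given in the sources used here. The deposited counts are not normalized and carry no molecular identifiers, so the floor of 3 counts covers counting error only. Libraries of N+P C1 replicate 2 held 0 and 110 counts of *Il10ra*, so 0 counts in a library does not bound the level. The 56 libraries held 6636532 to 32625243 counts.

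Counts of technical libraries were added up within each mouse and subset. A library with the same counts in Naive replicate 1 and S+P C4 replicate 1 was left out of both. The nearly identical libraries of S+P C7 replicates 1 and 2 (r = 0.999, next pair 0.953) were averaged and used as 1 sample, which gave 30 samples. Genes were named with GENCODE M39, which held 54749 of 55359 identifiers.

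All 7 groups were fitted together with edgeR 4.0.16 in R 4.3.3 (TMM, filterByExpr at min.count 10, quasi-likelihood fit with robust dispersions, two-sided test), and p-values were adjusted by Benjamini-Hochberg over 19657 genes. The thresholds were the study's, adjusted p below 0.1 with a log2 fold change past 0.9 in size. SEs were the log2 fold change over the root of its F statistic. Alternatives were DESeq2 1.42.0, RLE scaling, no filter, a fit of the compared groups alone, the replicate number as a block, all 56 columns, no samples under 9000 detected genes, and leaving out each sample. Equal replicate numbers of the N+P subsets, and of the S+P subsets, were read as 1 mouse, which the sample labels do not state. The main fit had no term for the mouse, so such subsets counted as separate samples. In the graft and C5 contrasts the block also put mice of different groups under the same number, so there it was not a pairing. Deviations of equal numbers from group means correlated on average by 0.0448 for N+P C1 and C5, 0.104 for S+P C4 and C5, 0.171 for C4 and C7 and 0.111 for C5 and C7, against -0.025 to -0.0172 for different numbers. Single pairs of S+P C4 and C5 ran from 0.0766 to 0.140 for equal numbers and up to 0.141 for different ones. Plots were made with Python 3.11.15 and matplotlib 3.10.9. The fit was tested on simulated data, where the averaged graft contrast called unchanged genes above the nominal rate. The size of this excess is not reported here. The simulated samples were independent, with a common mean per gene apart from the genes made to change. Subsets of a shared mouse and samples of few genes were thus not imitated.

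The text names the 8 genes throughout. From each list it names genes past both thresholds and up to 4 genes a contrast whose samples do not overlap with an unadjusted p under 0.05. It names 3 most similar genes for each receptor gene, among genes with a mean of at least 10 CPM, apart from 1 that is not reported here. Genes and lists were chosen with earlier results of these data known. *Il10rb* and *Il10* were picked once their values were known. ATAC-Seq was not analysed here.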

Additional observations from a re-analysis of the deposited data

Results flagged for a closer look

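Within groups of 4 to 6 samples, 32 sets of levels of the 8 genes were checked by Dixon's Q on CPM for a sample far from the others. In 6 there was one. The nominal rate of about 1 in 20 is for independent, normally distributed values. These levels are skewed with zeros and several of the 6 share a sample, so that rate does not apply. The merged S+P C7 sample of replicates 1 and 2 was far above the other 4 for *Il18rap* (803 CPM, others 0.327 to 178), *Il18r1* (173 CPM, others 0 to 49.9) and *Il12rb2* (37.5 CPM, others 0 to 7.85). S+P C7 replicate 3, with 7879 detected genes and 16515 CPM of erythroid markers, was far above the others for *Il6st* (92.9 CPM, others 10.4 to 25.6). S+P C4 replicate 4 was high for *Il12rb1* (58 CPM, others 0 to 21.2). S+P C5 replicate 3 was low for *Il27ra* (115 CPM, others 183 to 209).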

How the results depend on the processing

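The number of the 8 genes called stayed within 1.5 times under each alternative except as follows. Sensitized against Naive called 2 genes in place of 0 with DESeq2 and without the 3 samples under 9000 genes, and 3 in a fit of the compared groups alone, where *Il18r1* was added to *Il18rap* and *Il10ra*. N+P C5 against Naive called 1 (*Il10ra*) in place of 0 under the same 3 alternatives. S+P C5 against Sensitized called 2 (*Il10ra*, *Il18r1*) in the fit of the compared groups and 1 (*Il18r1*) without the 3 samples. The C5 contrast called 1 (*Il10ra*) in place of 0 with DESeq2, RLE scaling, the compared groups alone, the replicate block, all 56 columns, or without the 3 samples. The graft contrast called 5 in place of 3 without the 3 samples. The cause was not tested.

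With the replicate block, *Il6st* lost its call in the graft contrast (adjusted p 0.109), as it did with no filter on low counts (0.167), and *Il18rap* and *Il10ra* kept theirs at 0.00108 and 0.0709. In the comparisons of subsets read as from the same mice, the paired fit called 0 of the 8 as the unpaired one did. In the graft contrast the log2 fold change ran over all 32 alternatives from 2.41 to 2.87 for *Il18rap*, from 2.21 to 2.74 for *Il10ra* and from -1.70 to -1.50 for *Il6st*. No called difference changed direction. Among all 104 differences of the 8 genes, 32 changed sign under at least 1 alternative, none of them called. Over all genes, S+P C5 against Sensitized had 14 calls with edgeR and 1059 with DESeq2, and the graft contrast 220 and 1459. *Il12rb2* was at 3 counts or fewer in 8 of 30 samples, some of them among the deeper ones.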

Other observations

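*Il10*, the ligand of *Il10ra*, was at 0 counts in all 3 Naive and all 4 Sensitized samples. It was above 3 counts in 5 of 6 S+P C5 samples, with a median of 12.7 CPM and a highest level of 28.4 CPM, and in 4 of 5 S+P C7 samples, with a median of 18.7 CPM and a highest level of 29.9 CPM. In S+P C4 it was above 3 counts in 3 of 6 samples, at up to 3.9 CPM. In N+P C5 it was above 3 counts in 1 of 3 samples, at 13.1 CPM, and in N+P C1 in 1 of 3 samples, at 3.68 CPM. S+P C5 against Sensitized had an unadjusted p of 0.00358 and an adjusted p of 0.277, which did not pass. *Il10* was picked from the list of ligands after its values had been seen.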
